A study of Mus musculus with 6 samples.

Results

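The genes described here are the cyclins A to F and H, the cyclin-dependent kinases (CDKs), their INK4 and p27 inhibitors, the CDC25 phosphatases, WEE1, CDKN3 and SKP2, the RB family and the E2F and DP transcription factors, in mouse embryonic stem (ES) cells with and without the zinc-finger gene Zscan10. They were chosen by a rule on gene symbols, with earlier results of these data known. Of the 23244 loci in each file, 54 carried such a symbol. RNA depleted of ribosomal RNA was sequenced in 3 libraries of null cells, a subcloned Zscan10-null ES line titled Zscan10_KO, and in 3 libraries of control cells, in which Zscan10 was floxed but not deleted (Zscan10_f/f). Both groups belong to an inducible Cre-loxP knockout design, and the control titles carry the mark -Tx. Clone, genotype and any difference in treatment cannot be told apart, because the null cells were a subclone. No label says that the 3 libraries of either group stem from separate cultures, so p-values measure the spread between these libraries, which may be technical.

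In a dividing cell, D-type cyclins bind CDK4 and CDK6 and begin to phosphorylate the RB proteins, which hold E2F factors in check. Released E2F activates genes for DNA synthesis, among them the E-type cyclins, whose complex with CDK2 drives entry into S phase. Cyclins A and B with CDK2 and CDK1 then carry the cell through S phase, G2 and mitosis, with CDC25 phosphatases removing the inhibitory phosphates that WEE1 adds. Mouse ES cells are known for a short G1 phase, high E-type cyclin and CDK2 activity and low levels of D-type cyclins and INK4 inhibitors.

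Values are FPKM, fragment counts scaled to transcript length and library size, so that genes can be compared with each other. Zscan10 itself averaged 5.13 ± 0.607 FPKM in null cells and 43.0 ± 1.14 FPKM in control cells (SD, n = 3 each), a log2 fold change of -2.85. The ES cell label held: all 7 ES cell markers averaged 34.2 FPKM or more over the 6 libraries. Their summed levels were 1688 to 1811 FPKM in null and 1865 to 1907 FPKM in control cells. Of these, Tfcp2l1, Zfp42 and Esrrb were lower in null cells by the test described next (log2 fold changes of -0.24, -0.23 and -0.21). They make 42.9% of the list, against 12.4% of all loci tested. No marker was called higher, and 6 of the 7 had a negative log2 fold change. Of 8 fibroblast markers, looked at because ES cells can be grown on fibroblasts, 7 averaged under 1 FPKM over the 6 libraries. The list summed to 3.84 to 4.35 FPKM in null and 3.98 to 4.64 FPKM in control cells. Single markers moved in opposite directions within that sum. Thy1, the 1 marker tested, averaged 2.98 FPKM in null and 1.65 FPKM in control cells (adjusted p = 0.0215). Col1a1 averaged 0.0861 FPKM in null and 0.738 FPKM in control cells, and Col1a2 0.0776 FPKM in null and 1.13 FPKM in control cells, with no overlap for either. Postn was listed at 0 in all null libraries and averaged 0.0797 FPKM in control cells. The part of these markers in the results that follow was not tested. The steps between low values put the depth of the 6 libraries within 0.986 to 1.09 times that of control 1, which held roughly 7720000 fragments.

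Null cells were compared with control cells by limma on log2(FPKM + 1). The 11480 loci that averaged 1 FPKM or more were tested, with p-values adjusted over all of them by the Benjamini-Hochberg method, and a call means an adjusted p of at most 0.05. Among all loci tested 25.2% were called, 12.8% higher and 12.4% lower in null cells. Of the 54 members 49 were tested, and 9 of them (18.4%) rose while 6 (12.2%) fell, so that the share that fell was near the background and the share that rose was somewhat above it. The median log2 fold change of the tested members was 0.06, against -0.003 over all loci, and their median absolute log2 fold change was 0.16, against 0.14. For 51.0% of the members the groups did not overlap, against 44.1% of all loci tested, with null cells above control cells for 16 and below for 9 (21.6% and 22.5% of all loci). Adding 1 before taking logs makes the fold changes of low genes smaller than their ratios. The count of members that rose was 5 without null 3, 5 without control 1 and 5 without control 2. Over all loci the count that rose was 1014, 943 and 915 in these fits, against 1468 with all libraries. In these mixed cultures a different share of cells in a phase and a different level per cell cannot be told apart. The members and lists were not tested as sets.

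**Figure D1:**
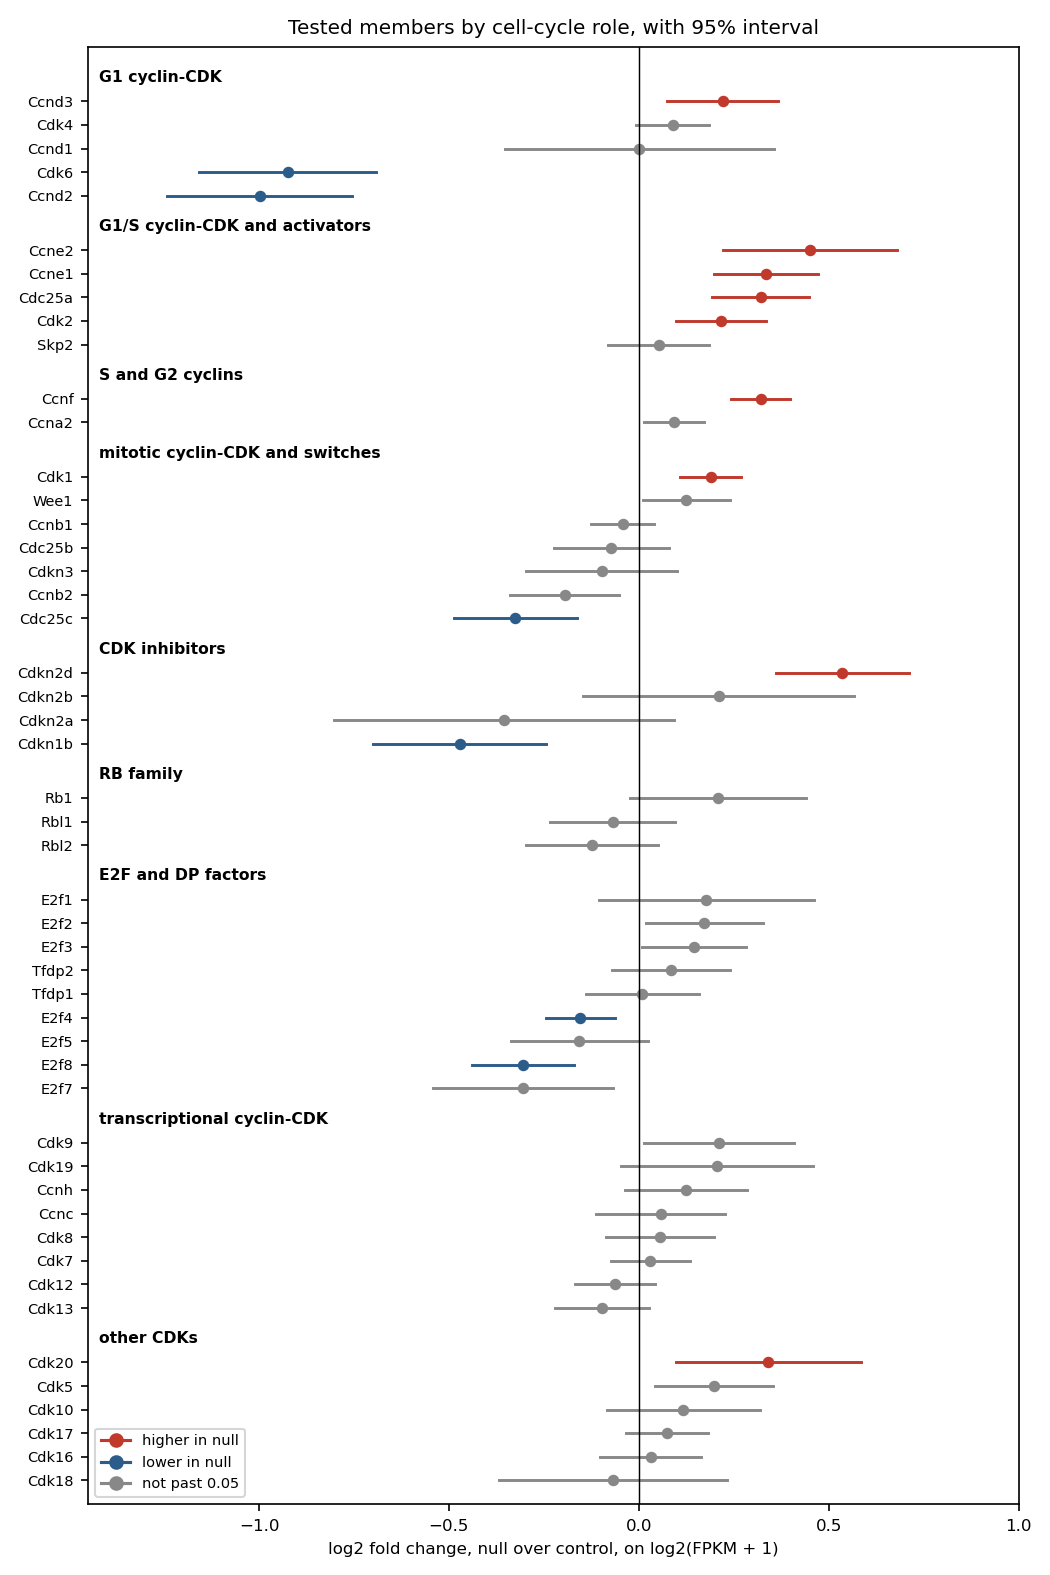
Log2 fold change of null over control cells on the log2(FPKM + 1) scale for the 49 tested members, grouped by cell-cycle role, with the 95% interval of the limma fit as a bar. Ccnd2 and Cdk6 lie far to the left at -1.0 and -0.92. The 5 G1/S members lie to the right of 0 with 4 of them past the threshold. No transcriptional cyclin or CDK passed the threshold, which 25.2% of all loci tested passed.

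In the G1 group the minor partners of the D-type cyclin kinases fell and the major ones did not. Ccnd2, which encodes cyclin D2 (chr6:127125162-127152188, GRCm38), was at 0.959, 0.728 and 0.968 FPKM in null cells and at 2.77, 3.04 and 2.48 FPKM in control cells. Every null library lay well below every control library, and the null mean was 0.32 times the control mean (log2 fold change -1.0, SE 0.10, adjusted p = 0.00115). These values correspond to roughly 46, 39 and 47 fragments in null and 136, 162 and 121 in control cells. Ccnd2 reached the minimum of 1 FPKM through its control level. Without that minimum its adjusted p was 0.00248, and with a pseudocount of 0.1 its log2 fold change was -1.55. Cdk6, one of the kinases that D-type cyclins activate (chr5:3341004-3531008), was at 3.06, 3.10 and 3.92 FPKM in null and 7.35, 7.77 and 6.64 FPKM in control cells. Its null mean was 0.463 times the control mean, again with no overlap (log2 fold change -0.92, SE 0.10, adjusted p = 0.0013).

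Cdk4, the other kinase of this pair and the most abundant member of all, was at 373, 360 and 361 FPKM in null and 348, 355 and 326 FPKM in control cells. Its log2 fold change of 0.09 had an interval of -0.01 to 0.18 and did not pass (adjusted p = 0.153). Ccnd3, cyclin D3, was at 37.5, 32.5 and 32.9 FPKM in null and 30.2, 29.1 and 28.4 FPKM in control cells and rose to 1.17 times the control mean (adjusted p = 0.0396). That call was lost without null 3 (adjusted p = 0.0596), without control 1 (0.0752), without control 2 (0.108) and without control 3 (0.113). It was also lost with no minimum (0.0593), with quantile normalization (0.0521) and without a variance trend (0.0625). Ccnd3 shares 361 exonic bases with Bysl on the opposite strand, and no source used here says whether fragments were assigned by strand. Bysl averaged 25.01 FPKM in null and 23.3 FPKM in control cells (adjusted p = 0.175). Ccnd1, cyclin D1, was at 20.1, 29.1 and 32.0 FPKM in null and 25.9, 26.0 and 27.8 FPKM in control cells, so that the null libraries lay on both sides of the control libraries (log2 fold change 0.00, interval -0.35 to 0.36). With quantile normalization its log2 fold change was -0.02. Ccnd1 shares 1100 exonic bases with LTO1 and Cdk4 shares 641 with Tspan31, both on opposite strands.

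The fall of Ccnd2 and Cdk6 was small against the totals of their families. The 3 D-type cyclins summed to 58.6, 62.3 and 65.8 FPKM in null and 58.8, 58.2 and 58.6 FPKM in control cells, which overlap. Ccnd2 supplied 1.43 ± 0.238% of that sum in null and 4.72 ± 0.496% in control cells (SD, n = 3 each). Cdk4 and Cdk6 together came to 376, 363 and 365 FPKM in null and 355, 363 and 333 FPKM in control cells. Cdk6 supplied 0.913 ± 0.139% of it in null and 2.07 ± 0.0726% in control cells.

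**Figure D2:**
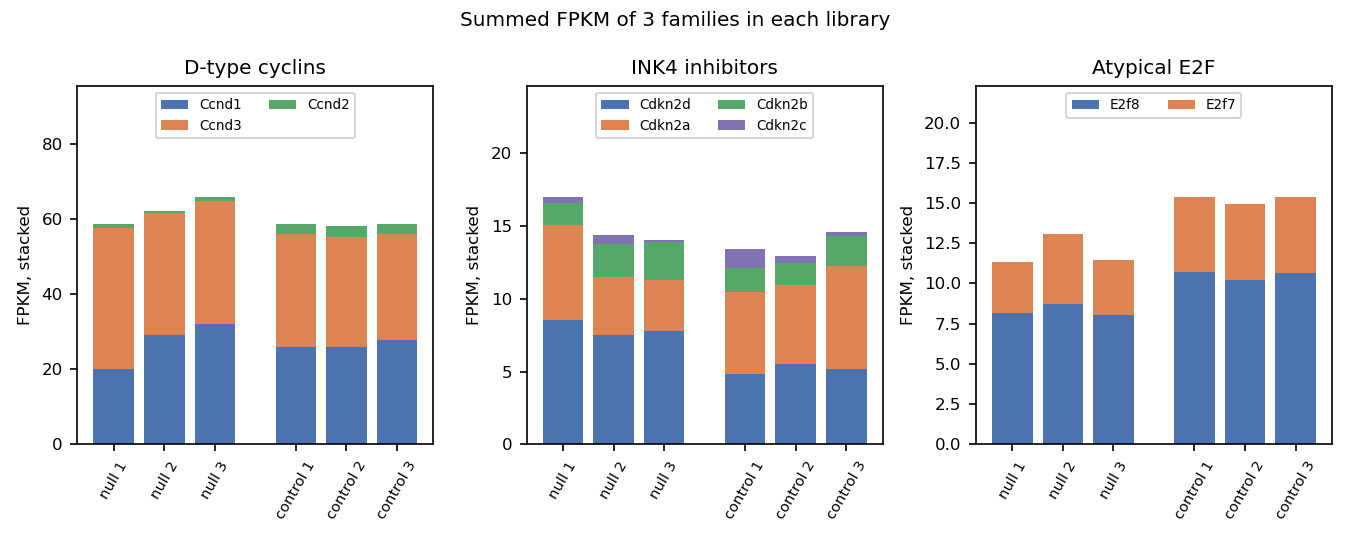
FPKM of the members of 3 families, stacked, in each of the 3 null and 3 control libraries. The D-type cyclin totals overlap between groups at 58.6 to 65.8 FPKM in null and 58.2 to 58.8 FPKM in control cells, the Cdkn2d part of the INK4 bars is taller in all null libraries, and the atypical E2F bars are shorter in all null libraries.

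In the G1/S group 4 of 5 members rose by limma (80%, against 12.8% of all loci tested) and 0 fell. The counts were the same at an unadjusted p under 0.05. At that level 2225 of the 11480 loci tested were higher and 2277 lower. Ccne1, cyclin E1 (chr7:38097984-38107490), was at 79.2, 91.7 and 89.5 FPKM in null and 68.7, 69.8 and 67.0 FPKM in control cells. All null libraries lay above all control libraries, with a mean 1.27 times the control mean (log2 fold change 0.33, SE 0.06, adjusted p = 0.0069). Ccne2, cyclin E2, was far lower in level, at 4.84, 6.0 and 6.14 FPKM in null and 3.80, 3.63 and 4.15 FPKM in control cells, and rose to 1.47 times the control mean (log2 fold change 0.45, SE 0.10, adjusted p = 0.0156). Ccne2 shares 609 exonic bases with Ints8 on the opposite strand, whose own level was 29.7 FPKM in null and 29.9 FPKM in control cells. Both E-type cyclins together came to 84.1, 97.7 and 95.6 FPKM in null and 72.5, 73.5 and 71.1 FPKM in control cells.

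Cdk2, their kinase, was at 55.3, 62.2 and 59.7 FPKM in null and 51.4, 51.4 and 49.2 FPKM in control cells, and rose to 1.17 times the control mean (log2 fold change 0.22, SE 0.05, adjusted p = 0.0207). Cdc25a, the phosphatase that activates CDK2 at the start of S phase, was at 26.2, 27.97 and 29.7 FPKM in null and 22.1, 21.7 and 22.6 FPKM in control cells. It rose to 1.26 times the control mean with no overlap between groups (log2 fold change 0.32, SE 0.05, adjusted p = 0.00633). Skp2, the F-box protein that marks p27 for destruction, did not pass, at 19.8, 19.7 and 20.7 FPKM in null and 19.4, 18.1 and 20.5 FPKM in control cells (interval -0.08 to 0.18). The calls of Ccne1 and Cdc25a held whichever library was left out. Ccne2 lost its call without null 2 (adjusted p = 0.0518), null 3 (0.0528), control 1 (0.0551) or control 2 (0.0593). Cdk2 lost its call without null 2 (0.0567), null 3 (0.062), control 1 (0.0574), control 2 (0.0566) or control 3 (0.0673).

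Promoters are shown for Cdc25a, Cdk2 and Ccne1 of the G1/S group, because E2F factors act at many G1/S promoters, and for Cdk1 of the mitotic group. These 4 genes were picked among the members that rose. Each runs 5′ to 3′ on the gene's strand, from 250 bases before to 50 bases after the start (RefSeq, GRCm38.p6). Capitals mark an E2F word (TTTCCCGC, TTTCGCGC, TTTGGCGC or TTTGCCGC, on either strand) or a CHR word (TTTGAA, on either strand), an element of promoters active in G2 and mitosis.
Cdc25a, chr9:109875329-109875628, plus strand: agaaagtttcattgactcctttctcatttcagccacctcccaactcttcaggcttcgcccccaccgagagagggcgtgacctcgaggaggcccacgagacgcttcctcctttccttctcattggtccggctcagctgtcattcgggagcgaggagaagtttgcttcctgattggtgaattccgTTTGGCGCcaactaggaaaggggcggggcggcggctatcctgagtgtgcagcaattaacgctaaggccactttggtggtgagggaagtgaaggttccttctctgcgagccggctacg
Cdk2, chr10:128705002-128705301, minus strand: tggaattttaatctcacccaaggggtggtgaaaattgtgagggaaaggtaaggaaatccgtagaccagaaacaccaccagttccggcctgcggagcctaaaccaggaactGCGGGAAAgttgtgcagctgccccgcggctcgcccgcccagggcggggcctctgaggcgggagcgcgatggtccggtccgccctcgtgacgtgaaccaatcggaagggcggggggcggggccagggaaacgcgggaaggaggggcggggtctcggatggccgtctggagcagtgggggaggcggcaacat
Ccne1, chr7:38107441-38107740, minus strand: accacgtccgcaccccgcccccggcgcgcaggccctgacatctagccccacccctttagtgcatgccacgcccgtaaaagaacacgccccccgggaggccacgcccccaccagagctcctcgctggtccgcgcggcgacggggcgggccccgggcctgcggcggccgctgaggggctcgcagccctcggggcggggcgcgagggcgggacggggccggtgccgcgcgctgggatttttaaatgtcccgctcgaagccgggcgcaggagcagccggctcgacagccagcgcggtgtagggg
Cdk1, chr10:69352863-69353162, minus strand: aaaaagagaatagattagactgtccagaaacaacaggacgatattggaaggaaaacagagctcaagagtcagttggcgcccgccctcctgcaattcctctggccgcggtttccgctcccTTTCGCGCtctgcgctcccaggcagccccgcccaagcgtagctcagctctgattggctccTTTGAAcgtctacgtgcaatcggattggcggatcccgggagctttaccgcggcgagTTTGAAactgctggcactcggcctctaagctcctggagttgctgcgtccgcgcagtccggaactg
The Cdc25a window holds TTTGGCGC 67 bases before the start, the Cdk2 window holds TTTCCCGC on its other strand 140 bases before it, and the Cdk1 window holds TTTCGCGC 131 bases before it and TTTGAA 71 and 15 bases before it. The Ccne1 window holds none of these words. Ccnf, Ccnd3, Cdkn2d and Cdk20, which also rose, have no E2F word in their listed promoters, not printed. The Ccnf promoter holds 2 CHR words. Skp2, the G1/S member that did not pass, has 2 listed promoters, not printed, with 0 E2F words. An E2F word was found for 9 of the 41 members with a listed promoter (22.0%), against 2.6% of the 27025 genes in the table, counting any listed start. By call, the word was found in 3 of 8 members that rose, in 0 of 3 that fell and in 6 of 25 that did not pass. The CHR word was found for 26.8% of members and 20.2% of all genes.

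**Figure D3:**
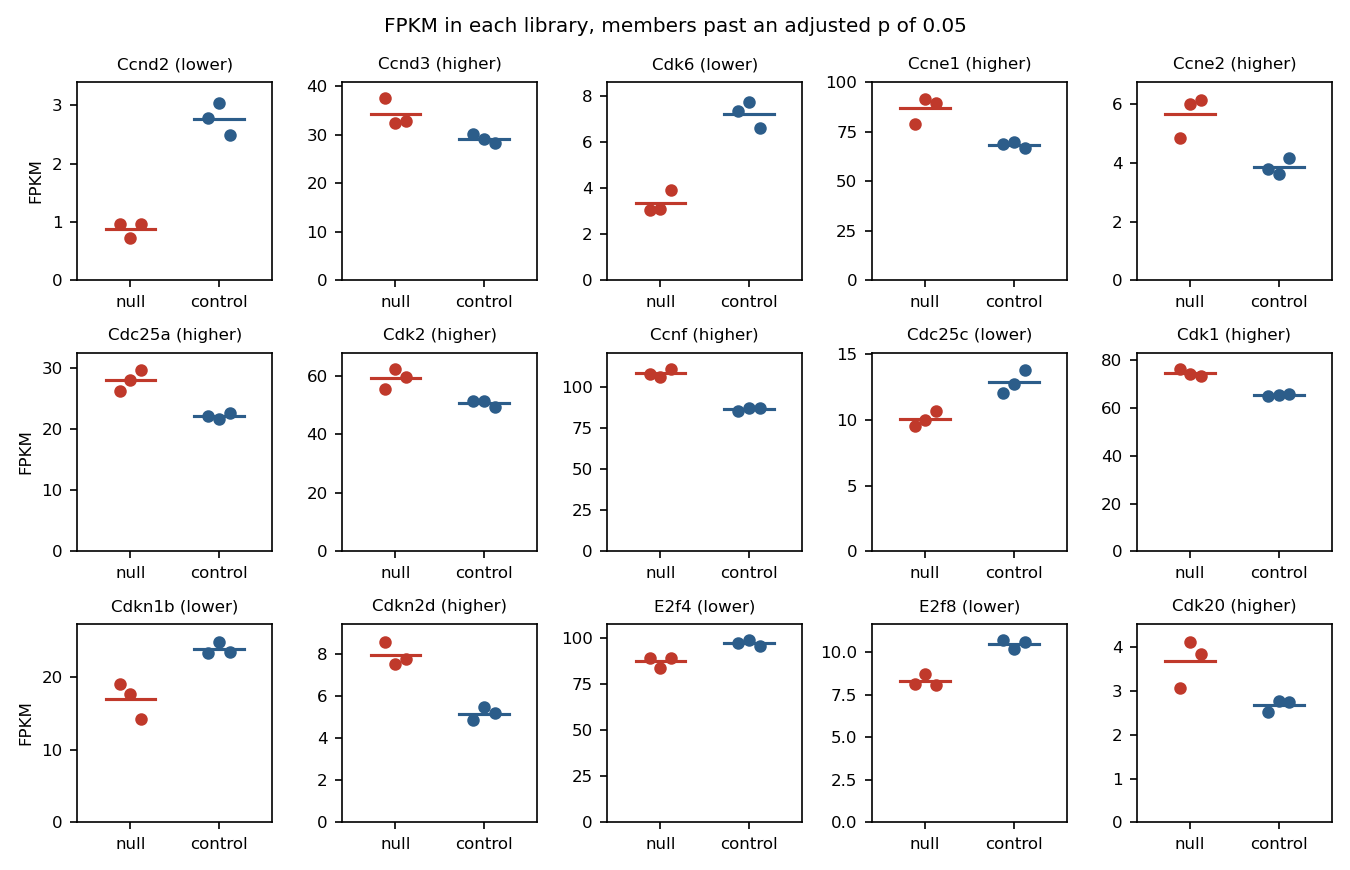
FPKM in each of the 3 null libraries (red points) and 3 control libraries (blue points) for the 15 members past an adjusted p of 0.05, with a line at each group mean and every axis starting at 0. In each panel the null and control points do not overlap, from Ccnd2 with means of 0.885 FPKM in null and 2.77 FPKM in control cells to E2f4 with 87.4 FPKM in null and 97.3 FPKM in control cells.

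Among the cyclins of S phase and G2, Ccnf changed clearly and Ccna2 did not pass. Ccnf, cyclin F, an F-box protein that directs the breakdown of cell-cycle proteins and binds no CDK, was at 108, 107 and 111 FPKM in null and 85.6, 87.4 and 87.2 FPKM in control cells. The null mean was 1.252 times the control mean, with a gap between groups far wider than the spread within either (log2 fold change 0.32, SE 0.03, adjusted p = 0.00116). The Ccnf locus also carries Mir5134. Ccna2, cyclin A2, the partner of CDK2 in S phase and of CDK1 later, was at 114, 115 and 112 FPKM in null and 105, 106 and 109 FPKM in control cells. Its groups did not overlap, but the log2 fold change of 0.09 (interval 0.01 to 0.17) missed the threshold (adjusted p = 0.0856), and passed with median centring (0.0444). Ccna1, cyclin A1, known from the germ line, rested on 0, 1 and 1 fragments in null and 4, 0 and 2 fragments in control cells and was not tested.

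In the mitotic group 1 of 7 tested members rose and 1 fell. Each is 14.3%, near the 12.8% of all loci tested that rose and the 12.4% that fell. Cdk1, the kinase that starts mitosis, was at 76.4, 74.2 and 73.2 FPKM in null and 65.0, 65.2 and 65.8 FPKM in control cells and rose to 1.14 times the control mean (log2 fold change 0.19, SE 0.03, adjusted p = 0.00815). Its main partner gene Ccnb1, cyclin B1, the second most abundant member, was at 201, 193 and 188 FPKM in null and 197, 201 and 201 FPKM in control cells and did not pass (interval -0.13 to 0.04, adjusted p = 0.415). Ccnb2, cyclin B2, was at 86.9, 81.9 and 76.5 FPKM in null and 95.3, 87.5 and 98.4 FPKM in control cells. Its adjusted p of 0.0543 missed the threshold, and passed without null 1 (0.034), without control 2 (0.0481) and with quantile normalization (0.0205). Cdc25c, a phosphatase that activates CDK1, was at 9.52, 9.98 and 10.7 FPKM in null and 12.1, 12.7 and 13.8 FPKM in control cells and fell to 0.782 times the control mean (log2 fold change -0.33, SE 0.07, adjusted p = 0.0148, or 0.0505 without control 2). Of the CDC25 genes Cdc25a was called higher and Cdc25c lower, while Cdc25b averaged 5.93 FPKM in null and 6.29 FPKM in control cells (adjusted p = 0.45). Wee1, the kinase that opposes them, was at 35.5, 31.9 and 32.7 FPKM in null and 30.2, 30.4 and 30.8 FPKM in control cells (adjusted p = 0.104), and Cdkn3 did not pass either (adjusted p = 0.435). Ccnb3, cyclin B3, known from meiosis, rested on 3, 4 and 6 fragments in null and on 1 fragment in each control library and was not tested.

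Of the 4 CDK inhibitors tested 1 rose and 1 fell (25% each, against 12.8% and 12.4% of all loci tested). Cdkn2d, which encodes the INK4 protein p19 that blocks CDK4 and CDK6 (chr9:21288459-21291421), was at 8.57, 7.53 and 7.79 FPKM in null and 4.85, 5.48 and 5.21 FPKM in control cells. With a null mean 1.54 times the control mean it had the largest positive log2 fold change among the tested members (0.54, SE 0.07, adjusted p = 0.00299). Cdkn1b, p27, which inhibits CDK2 complexes (chr6:134920401-134925525), was at 19.1, 17.7 and 14.3 FPKM in null and 23.3, 24.8 and 23.4 FPKM in control cells. It fell to 0.714 times the control mean, with null 3 lowest (log2 fold change -0.47, SE 0.10, adjusted p = 0.0133, or 0.0529 without control 2).

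Cdkn2a, the locus of p16INK4a and of ARF, has 1 value in the files for both products, which cannot be told apart there. It was at 6.48, 3.95 and 3.49 FPKM in null and 5.65, 5.49 and 7.07 FPKM in control cells. Null 1 lay among the control libraries and the other null libraries below them, and the locus did not pass (log2 fold change -0.36, interval -0.80 to 0.09, adjusted p = 0.211). Without null 1 its log2 fold change was -0.58 and it passed (adjusted p = 0.0178). Its neighbour Cdkn2b, p15, was at 1.54, 2.31 and 2.63 FPKM in null and 1.62, 1.48 and 2.03 FPKM in control cells (adjusted p = 0.348). Cdkn2c, p18, rested on 3, 5 and 1 fragments in null and 10, 4 and 2 fragments in control cells and was not tested. The 4 INK4 genes summed to 17.0, 14.4 and 14.0 FPKM in null and 13.4, 12.9 and 14.6 FPKM in control cells, which overlap, but Cdkn2d supplied 52.7 ± 2.53% of the sum in null and 38.0 ± 3.74% in control cells (SD, n = 3 each).

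No RB family gene passed the limma threshold, against 25.2% of all loci tested, and 0 of the 3 had an unadjusted p under 0.05. Rb1 was at 4.15, 5.25 and 5.20 FPKM in null and 3.82, 3.98 and 4.41 FPKM in control cells (log2 fold change 0.21, interval -0.02 to 0.44, adjusted p = 0.166), and passed without null 1 (adjusted p = 0.0455). Rb1 shares 408 exonic bases with Lpar6 on the opposite strand, which averaged 7.45 FPKM in null and 5.41 FPKM in control cells (adjusted p = 0.0253). The part of that overlap in the Rb1 values was not tested. Rbl1, p107, the most abundant of the 3, was at 9.45, 8.87 and 10.2 FPKM in null and 9.44, 10.6 and 9.96 FPKM in control cells. Rbl2, p130, was at 4.09, 3.95 and 4.12 FPKM in null and 4.19, 4.5 and 4.85 FPKM in control cells (interval -0.30 to 0.05). The summed level was 17.7, 18.1 and 19.5 FPKM in null and 17.5, 19.1 and 19.2 FPKM in control cells.

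Of the 9 E2F and DP factors, 2 fell by limma (22.2%, against 12.4% of all loci tested) and 0 rose (against 12.8%). At an unadjusted p under 0.05, 2 were higher and 3 lower. The 2 that fell, E2f4 and E2f8, are known as repressors. E2f4, a repressor that works with p130 and p107 and the most abundant E2F, was at 88.9, 84.0 and 89.2 FPKM in null and 97.4, 99.1 and 95.4 FPKM in control cells. It fell to 0.898 times the control mean (log2 fold change -0.15, SE 0.04, adjusted p = 0.0261). E2f8, an atypical repressor that binds DNA without a DP partner, was at 8.15, 8.73 and 8.04 FPKM in null and 10.7, 10.2 and 10.6 FPKM in control cells and fell to 0.792 times the control mean (log2 fold change -0.30, SE 0.06, adjusted p = 0.00947). Its atypical relative E2f7 had a log2 fold change of -0.31, with null libraries at 3.20, 4.34 and 3.41 FPKM, all below the control libraries at 4.68, 4.75 and 4.72 FPKM. Its adjusted p was 0.0631, or 0.0185 without null 2. E2f5 averaged 15.1 ± 0.977 FPKM in null and 17.0 ± 1.47 FPKM in control cells and did not pass (adjusted p = 0.175). E2f4 lost its call without null 2 (0.0664), control 1 (0.0782) or control 2 (0.0914), with median centring (0.0518) and without a variance trend (0.0643).

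The activator E2F genes were each higher in mean in null cells without passing. E2f1 was at 8.51, 8.80 and 7.02 FPKM in null and 6.11, 8.34 and 6.78 FPKM in control cells (interval -0.10 to 0.46, adjusted p = 0.315). E2f2 was at 4.77, 4.93 and 4.73 FPKM in null and 4.04, 4.31 and 4.11 FPKM in control cells (adjusted p = 0.0968), and passed with quantile normalization (0.0417) and without a variance trend (0.0416). E2f3 was at 10.6, 11.7 and 11.6 FPKM in null and 10.2, 10.3 and 9.83 FPKM in control cells (adjusted p = 0.112). Summed, the 3 activators came to 23.9, 25.4 and 23.3 FPKM in null and 20.4, 22.9 and 20.7 FPKM in control cells. E2f4, E2f5, E2f7 and E2f8 came to 114, 113 and 116 FPKM in null and 131, 129 and 128 FPKM in control cells. Most of that second sum was E2f4, which averaged 87.4 FPKM in null and 97.3 FPKM in control cells. Tfdp1, the main DP partner, was at 137, 159 and 160 FPKM in null and 155, 146 and 152 FPKM in control cells, with null 1 apart from the other null libraries (interval -0.14 to 0.16). Tfdp2 did not pass (adjusted p = 0.386).

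Of the 8 cyclins and CDKs that act on transcription limma called 0, against 25.2% of all loci tested. At an unadjusted p under 0.05, 1 was higher and 0 lower. The 8 include Cdk7 and Ccnh of the CDK-activating kinase and Cdk8, Cdk19 and Ccnc of the Mediator kinase module. The others are Cdk9, Cdk12 and Cdk13, which phosphorylate RNA polymerase II. Cdk12, the most abundant, was at 46.4, 43.9 and 48.0 FPKM in null and 46.9, 48.9 and 48.7 FPKM in control cells. Log2 fold changes ran from -0.10 for Cdk13 to 0.21 for Cdk9, and Cdk7, at 16.84, 16.45 and 16.64 FPKM in null and 16.58, 15.99 and 16.30 FPKM in control cells, had an interval of -0.07 to 0.13.

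Of the 6 other CDKs tested 1 rose (16.7%, near the 12.8% of all loci tested) and 0 fell. Cdk20, a CDK-like kinase linked to cell growth and cilia, was at 3.07, 4.12 and 3.85 FPKM in null and 2.51, 2.78 and 2.75 FPKM in control cells, 1.37 times the control mean, and its adjusted p of 0.0497 lay at the threshold. It lost its call without null 2 (0.131), null 3 (0.130), control 1 (0.137), control 2 (0.104) or control 3 (0.103), and with no minimum (0.0913). Cdk5, a kinase best known from neurons, was at 8.46, 8.28 and 8.16 FPKM in null and 7.70, 6.89 and 6.75 FPKM in control cells (adjusted p = 0.0652), and passed with median centring (0.0471) and quantile normalization (0.0386). Cdk16, the most abundant of these kinases, was at 39.1, 36.4 and 36.0 FPKM in null and 38.5, 36.2 and 34.2 FPKM in control cells, and Cdk10, Cdk17 and Cdk18 did not pass either. Cdk14, with 29 fragments over the null and 41 over the control libraries, and Cdk15, with 11 over the null and 4 over the control libraries, lay under the minimum and were not tested.

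Genes downstream of these regulators were described by lists, which were chosen with earlier results of these data known. In a list of 30 S-phase genes known as E2F targets, limma called 22 higher (73.3%, against 12.8% of all loci) and 0 lower, with 25 higher and 0 lower at an unadjusted p under 0.05. The median log2 fold change of the list was 0.25, and null cells lay above control cells for 26 of the 30, against 21.6% of all loci tested. Rrm1, a ribonucleotide reductase subunit, was at 85.4, 100.3 and 101.9 FPKM in null and 64.8, 63.0 and 68.2 FPKM in control cells (log2 fold change 0.54, adjusted p = 0.00248). Orc1, which marks replication origins, was at 55.4, 52.8 and 53.1 FPKM in null and 37.6, 38.5 and 36.8 FPKM in control cells (0.50, adjusted p = 0.000459). Rrm2, the partner subunit of Rrm1, and Mcm10, a replication factor, averaged 143 and 76.4 FPKM in null and 107 and 59.0 FPKM in control cells.

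The 23 genes of a G2/M list held 7 that rose (30.4%, against 12.8% of all loci) and 1 that fell (4.35%, against 12.4%). Their median log2 fold change was 0.03. The count higher was 3 without control 1, 3 without control 2 and 4 without control 3. Over all loci the count higher was 943, 915 and 1047 in these fits, against 1468 with all libraries. Kif23, a kinesin of cell division, averaged 46.2 FPKM in null and 39.3 FPKM in control cells, and Prc1, which bundles microtubules of the central spindle, 86.9 FPKM in null and 75.5 FPKM in control cells. Kif23 lost its call without control 1 (0.0546) and without control 2 (0.0566). The checkpoint kinase gene Bub1 was higher as well (log2 fold change 0.19), and Aurkb, the kinase of the chromosomal passenger complex, was lower at 32.8 FPKM in null and 37.6 FPKM in control cells (log2 fold change -0.19, adjusted p = 0.0279). Aurkb lost its call without null 3 (0.0691), control 1 (0.0528), control 2 (0.0896) or control 3 (0.0859). Whether the S-phase and G2/M lists differ from each other was not tested.

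Among 29 direct partners of the members 5 rose (17.2%, against 12.8% of all loci) and 2 fell (6.9%, against 12.4%), and their median log2 fold change was 0.05. The count that rose was 3 without null 2, without null 3, without control 1 or without control 2. Over all loci it was 1063, 1014, 943 and 915 in these fits, against 1468 with all libraries. Fbxo5, an inhibitor of the anaphase-promoting complex, was at 109, 112 and 114 FPKM in null and 86.4, 90.8 and 90.4 FPKM in control cells (log2 fold change 0.32, adjusted p = 0.00164). Cks1b, which helps SKP2 bind p27, was at 178, 182 and 186 FPKM in null and 155, 148 and 144 FPKM in control cells (0.28, adjusted p = 0.00282), and Skp1a, a core subunit of the SKP2 ligase, averaged 323 FPKM in null and 280.0 FPKM in control cells (0.20, adjusted p = 0.0238). Skp1a lost its call without null 2 (0.072), null 3 (0.0743), control 1 (0.082) or control 2 (0.0855), with quantile normalization (0.123) and without a variance trend (0.0543). Lin37, a subunit of the DREAM complex in which E2F4 and p130 act, was at 11.7, 10.7 and 12.4 FPKM in null and 16.5, 16.1 and 14.3 FPKM in control cells and fell (log2 fold change -0.40, adjusted p = 0.00971). E2f6, another repressor of the family that the symbol rule leaves out, also fell, at 6.72, 6.55 and 6.83 FPKM in null and 7.70, 7.97 and 7.84 FPKM in control cells (adjusted p = 0.0397), but lost its call whichever library was left out (adjusted p up to 0.125), and with no minimum, median centring or quantile normalization. The CIP/KIP inhibitor Cdkn1a, p21, averaged 11.5 FPKM in null and 11.8 FPKM in control cells (adjusted p = 0.79). Cdkn1c, of the same family, was at 8.83, 5.03 and 13.4 FPKM in null and 12.8, 13.6 and 13.6 FPKM in control cells. It did not pass either (log2 fold change -0.59, interval -1.23 to 0.04, adjusted p = 0.15). E2f6, Cdkn1a and Cdkn1c were named after their values were seen.

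**Figure D4:**
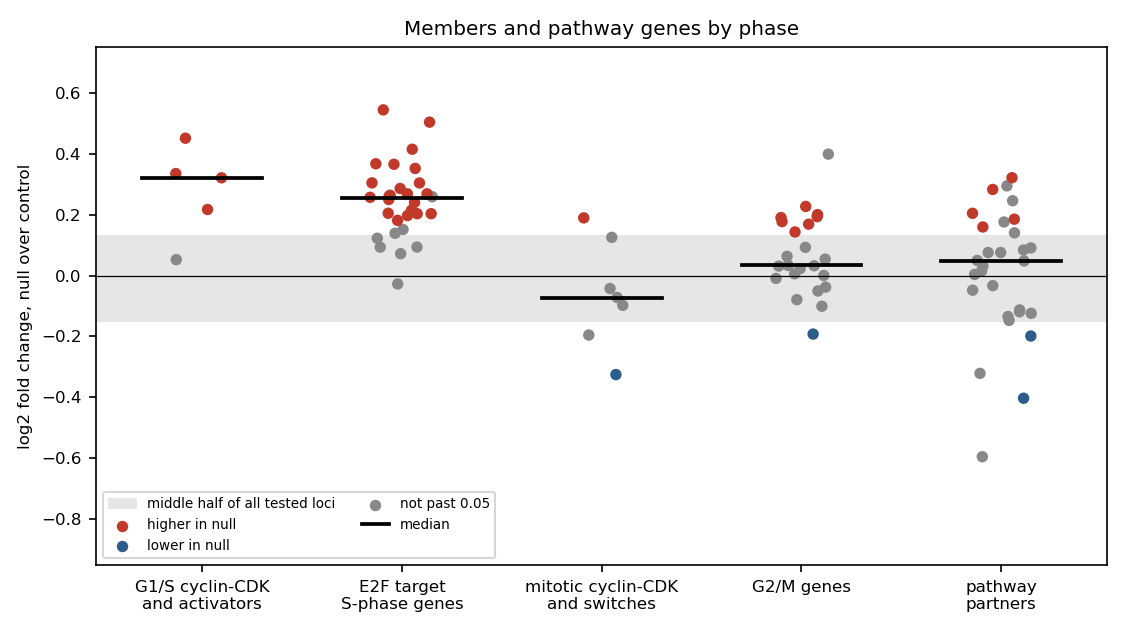
Log2 fold change of null over control cells for the genes of 5 lists, 1 point a gene, with the list median as a black bar and the middle part of all tested loci, -0.15 to 0.13, as a grey band. The S-phase E2F targets centre on 0.25 and the G1/S members on 0.32, both above the band, while the medians of the mitotic members, the G2/M genes and the partners lie inside it at -0.07, 0.03 and 0.05.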

How the data were processed

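RNA was sequenced in 3 null and 3 control libraries. The authors deposited 1 value per locus and library, with symbols and RefSeq accessions per the file headers. Per the submitters' processing notes, TopHat, Cuffdiff, Trim Galore and FastQC were used with mm10; no source used here gives versions, roles or scaling between libraries. The unit is stated nowhere. The deposited values were taken as FPKM because they are not whole, their totals (664555 to 699401) differ between libraries, and Cuffdiff reports FPKM. Members were loci with a symbol token matching the rule, and names and positions came from RefSeq GRCm38.p6, which is mm10. Exon overlaps and transcript lengths came from GENCODE M21, in which 25 members share exonic bases with another gene, among them E2f8 (610, Gm2788), Cdc25c (623, Gm3550) and Ccna2 (510, Exosc9), all on opposite strands.

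The null and control groups were fitted with limma 3.58.1 (R 4.3.3; lmFit and trended eBayes, no covariate) on log2(FPKM + 1). Loci averaging 1 FPKM or more entered, with Benjamini-Hochberg adjustment at 0.05. The fragments of members under 1 FPKM came from whole-number steps between libraries, and of Ccnd2 from transcript length and a rough depth. Counting error limits such low values. In data simulated for this comparison on 11480 genes, 200 genes were changed in each run. The fit recovered 80.0% of genes changed 2-fold and 62.0% of those changed 1.5-fold. It recovered only 31.2% of those changed 1.25-fold, a size near that of many members. In the real data 25.2% of the loci tested were called, which alters the adjusted threshold, so these rates cannot be carried over to the members. Correlations of log2 values were 0.975 to 0.983 within groups and 0.962 to 0.976 between groups.

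The members, roles and lists were chosen with earlier results of these data known. Values by library are given for members past the threshold, the most abundant member of each role and the main cell-cycle regulators, and at most 4 called genes of each other list are named, besides E2f6. Fibroblast markers were Col1a1, Col1a2, Col3a1, Thy1, Postn, Lum, Dcn and Pdgfrb. The alternatives changed the pseudocount, minimum, scaling, variance trend, a replicate block and each library in turn.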

Additional observations from a re-analysis of the deposited data

How the results depend on the processing

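All 15 called members kept their direction under the 14 alternatives, and 8 kept their call in each that tested them: Ccnd2, Ccne1, Ccnf, Cdc25a, Cdk1, Cdk6, Cdkn2d and E2f8. Leaving out 1 library gave 9 to 18 called members, 5 to 10 higher and 4 to 8 lower, and 1697 to 2903 loci over the whole table, with the fewest loci without control 2 and 1741 without control 1. By role it gave 2 to 4 G1/S members, 1 to 3 CDK inhibitors, 1 to 2 E2F and DP factors, 0 to 1 RB genes and 0 to 1 other CDKs. In the lists it gave 3 to 7 partners higher and 1 to 3 lower, and 3 to 7 G2/M genes higher and 0 to 1 lower. The S-phase list stayed at 19 to 24 higher and 0 lower in the alternatives run.

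Quantile normalization and dropping the variance trend each gave 3 partners and 4 G2/M genes higher, and quantile normalization gave 3 G2/M genes lower. Partners lower numbered 1 with no minimum, median centring, quantile normalization or the replicate block. The E2F and DP factors called numbered 1 with median centring or the block, and median centring called 2 S and G2 cyclins. Of the other CDKs, 0 were called with no minimum, a minimum of 5 FPKM or the block, and 2 with median centring or quantile normalization.

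Signs turned for genes that did not pass and lay near 0. With quantile normalization the log2 fold change was -0.022 for Ccnd1 and -0.032 for Tfdp1. Leaving out 1 library gave log2 fold changes of -0.13 to 0.19 for Ccnd1, -0.029 to 0.083 for Tfdp1, -0.0092 to 0.074 for Cdk16, -0.16 to 0.037 for Cdk18 and -0.17 to 0.047 for Cdkn1a. Replicate numbers are not said to mark a shared batch, and same-numbered libraries deviated together with correlations of -0.002, 0.11 and 0.05, so the numbers were not taken as pairs. With the block 8 members were higher and 5 lower, and 0 G2/M genes were lower. Among the members and the named S-phase, G2/M and partner genes, 4 calls ended with the block. They were those of E2f4 (adjusted p = 0.0629), Cdk20 (0.0545), Aurkb (0.0626) and E2f6 (0.0872). Cell type markers, Cdkn1c and genes that overlap members were not followed under the alternatives. Why these values moved was not tested. The 5 members under 1 FPKM rest on 2 to 41 fragments in a group, which limits their precision.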
